A study of Mus musculus with 6 samples.

Results

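The connexin and pannexin transcripts of the cochlear lateral wall were described in primary cell cultures from *Nhe6*-knockout and wildtype mice. By the study's methods, the stria vascularis was dissected together with the spiral ligament to start the cultures. The 7 genes (*Gjb2*, *Gjb6*, *Gja1*, *Gja4*, *Gja5*, *Gjc1* and *Panx1*) were taken by symbol from the 24421 genes of the count table, and each was found there once. To compare gene expression between the genotypes, RNA was sequenced from 3 cultures of *Nhe6*-knockout mice and 3 of wildtype mice. The mice were of postnatal day 10 to 12, no culture was treated, and all were grown in the same endothelial medium with serum and endothelial growth factor. The knockout line carries a targeted disruption of *Nhe6*. The background of all mice was given as C57BL/6N in the labels and as C57bl6/j in the study's methods, and the disruption is not limited to a cell type. By those methods the cultured cells were purified by fluorescence-activated sorting, with no marker named there, and those of a culture were pooled from at least 6 mice, so animals could not be compared. Whether the 3 cultures of a genotype were grown from different mice was not given in the sources used here, so p-values measure the spread between these cultures, which may be technical.

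Connexins are membrane proteins that form hexameric hemichannels, which dock between neighbouring cells as gap junctions and pass ions and small metabolites. Pannexins form related channels that mainly open to the outside of the cell and release ATP. In the lateral wall, gap junctions of Cx26 (*Gjb2*) and Cx30 (*Gjb6*) join fibrocytes, basal cells and intermediate cells of the stria into a network that returns potassium towards the endolymph, and mutations of either gene cause deafness. Vessels use other members, chiefly Cx37 (*Gja4*), Cx40 (*Gja5*), Cx43 (*Gja1*) and Cx45 (*Gjc1*).

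Total gene counts ranged from 25587097 to 29126232 per library. Wildtype replicate 2 stood apart, at 112 on the first principal component against −30.4 to −6.49 in the other 5 libraries. *Nhe6*-knockout replicates 1 and 2 were the most alike, with a chi-square per degree of freedom of 4.76 between them, against 85.7 to 378 for the other pairs of a genotype. Of the defining endothelial markers, *Cldn5* and *Robo4* were listed at 0 in all 6 libraries and *Pecam1* had 1 to 8 counts, and 6 of the 12 endothelial genes listed passed the filter on low counts. Among those 6, *Emcn* had 397 to 18730 counts (lowest in wildtype replicate 2) and *Egfl7* 135 to 326 (lowest in wildtype replicates 2 and 3). *Tek* had 193 to 975, *Esam* 3 to 230 and *Kdr* 1 to 68, each highest in wildtype replicate 2. *Tie1* (0 to 2 counts), *Erg* (3 to 15) and *Vwf* (0 to 25) did not pass. *Cdh5*, the gene of VE-cadherin, had 189 to 250 counts in *Nhe6*-knockout and 2566 to 5039 in wildtype libraries (edgeR adjusted p = 0.0133). It too was highest in wildtype replicate 2.

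The promoters of *Gjb2* and *Gjb6* are shown because these neighbouring genes gave the widest range of values, and that of *Gja1* because it was the most abundant connexin of the *Nhe6*-knockout cells and was highest in the library where both were lowest. They are the 250 bases before the RefSeq gene start on GRCm38.p6, read 5′ to 3′ on the gene's strand: chr14:57104703-57104952 (minus strand) for *Gjb2*, chr14:57133612-57133861 (minus strand) for *Gjb6* and chr10:56377050-56377299 (plus strand) for *Gja1*. Capitals mark the GC box (GGGCGG, or CCGCCC on the other strand) and the AP-1 motif (TGANTCA, which matches itself on both strands).
Gjb2: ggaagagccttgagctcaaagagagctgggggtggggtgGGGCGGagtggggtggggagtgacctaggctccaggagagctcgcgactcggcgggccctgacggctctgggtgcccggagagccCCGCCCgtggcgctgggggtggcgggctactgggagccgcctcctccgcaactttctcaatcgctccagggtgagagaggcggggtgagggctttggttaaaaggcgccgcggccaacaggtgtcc
Gjb6: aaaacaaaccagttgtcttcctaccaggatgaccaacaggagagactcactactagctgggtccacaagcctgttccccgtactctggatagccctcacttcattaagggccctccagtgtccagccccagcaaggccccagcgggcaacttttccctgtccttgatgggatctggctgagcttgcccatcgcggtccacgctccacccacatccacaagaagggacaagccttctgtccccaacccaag
Gja1: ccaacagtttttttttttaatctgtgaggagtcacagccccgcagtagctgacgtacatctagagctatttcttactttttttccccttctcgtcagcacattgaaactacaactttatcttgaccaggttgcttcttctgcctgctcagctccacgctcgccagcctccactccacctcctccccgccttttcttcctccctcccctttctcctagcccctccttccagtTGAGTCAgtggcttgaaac
The *Gjb2* window held 2 GC boxes, starting 211 and 126 bases before the gene start, and 18 CpG dinucleotides at a GC content of 69.2%. The *Gjb6* window held 5 CpG dinucleotides at 56.8% GC, and neither motif was found in its letters. The *Gja1* window held 1 AP-1 match, 19 bases before the gene start, at 50.0% GC. Of 32851 promoter windows of that length, 32.7% held a GC box and 6.75% an AP-1 match, and a match only describes the letters. A GC box was also found for *Gja4* and *Gja5*, and *Panx1* had neither motif.

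*Gjb2*, the gene of Cx26, lies on chromosome 14 (GRCm38, 57098600 to 57104702, minus strand). *Nhe6*-knockout replicates 1, 2 and 3 held 1756, 1876 and 396 normalized counts of it (counts scaled by library size and TMM factor), and wildtype replicates 1, 2 and 3 held 21676, 28.9 and 14748. Wildtype replicates 1 and 3 were far above every *Nhe6*-knockout library and wildtype replicate 2 was far below all of them, so the genotypes overlapped. The mean of the *Nhe6*-knockout cells was 1343 ± 822 (SD, n = 3) and that of the wildtype cells 12151 ± 11055 (SD, n = 3). The log2 fold change was −3.18 ± 1.71 SE (95% interval −7.31 to 0.95), with an adjusted p of 0.533 in edgeR's quasi-likelihood test with Benjamini-Hochberg adjustment. Within the wildtype group the highest library held 751 times the lowest, and the SD of the log2 values (5.33) ranked 3rd of the 13479 genes tested. Without wildtype replicate 2 the log2 fold change was −3.77 ± 0.64 SE with an edgeR adjusted p of 0.0428, the only one of 14 alternatives in which it was called (adjusted p from 0.0428 to 0.963 over them). In limma-voom it was −0.96 ± 2.57 SE. Bulk RNA does not tell apart a smaller number of cells that express the gene from less RNA in each of them.

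*Gjb6*, the gene of Cx30, lies next to *Gjb2* on the same strand, with 18600 bp and 1 protein-coding gene model between the annotated genes. *Gjb6* had 755, 734 and 164 normalized counts in the *Nhe6*-knockout libraries and 3206, 20.6 and 1463 in the wildtype libraries, in order of replicate number. The order of the libraries was that of *Gjb2*, except that *Nhe6*-knockout replicates 1 and 2, which were nearly equal, changed places. The log2 fold change was −1.51 ± 1.36 SE (95% interval −4.78 to 1.77) and the edgeR adjusted p was 0.733. Leaving out wildtype replicate 2 gave −2.09 ± 0.65 SE and an edgeR adjusted p of 0.157, leaving out wildtype replicate 1 gave −0.44 ± 1.49 SE, and limma-voom gave −0.074 ± 1.87 SE. In all, *Gjb6* was not called in any of its 14 alternatives (adjusted p from 0.157 to 0.999).

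**Figure D1:**
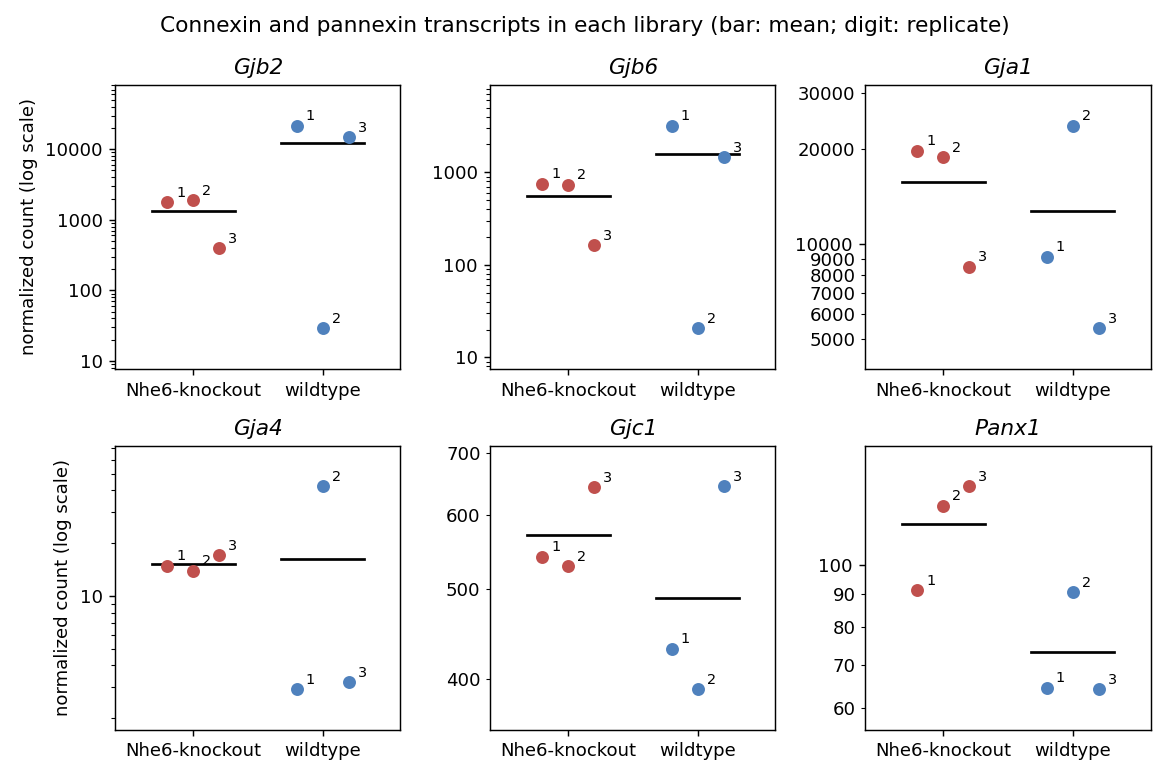
Normalized counts (vertical log axes) of the 6 tested genes in the 3 *Nhe6*-knockout (red) and 3 wildtype (blue) libraries, with the replicate number beside each point and a bar at the group mean. *Gjb2* and *Gjb6* of wildtype replicate 2 lie below all other libraries, whereas its *Gja1* and *Gja4* lie above them.

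The proportion of *Gjb2* to *Gjb6* differed between libraries beyond counting error. In the *Nhe6*-knockout cells the ratio of their counts was 2.33 (95% counting interval 2.13 to 2.54), 2.56 (2.35 to 2.78) and 2.42 (2.02 to 2.91), and the highest was 1.10 times the lowest even though the level of *Gjb2* varied 4.73 times. In the wildtype cells it was 6.76 (6.52 to 7.02), 1.40 (0.761 to 2.62) and 10.1 (9.53 to 10.7). Hence the *Nhe6*-knockout ratios lay close together and between the wildtype ones, and the difference of the mean log2 ratios was −0.91 (two-sided exact permutation test, p = 0.4). Ratios of *Gjb2* and of *Gjb6* to *Gja1*, the other pairs compared, each gave p = 1.0 in the same exact permutation test, and with 3 against 3 the smallest p possible is 0.1. The intervals cover counting error only.

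**Figure D2:**
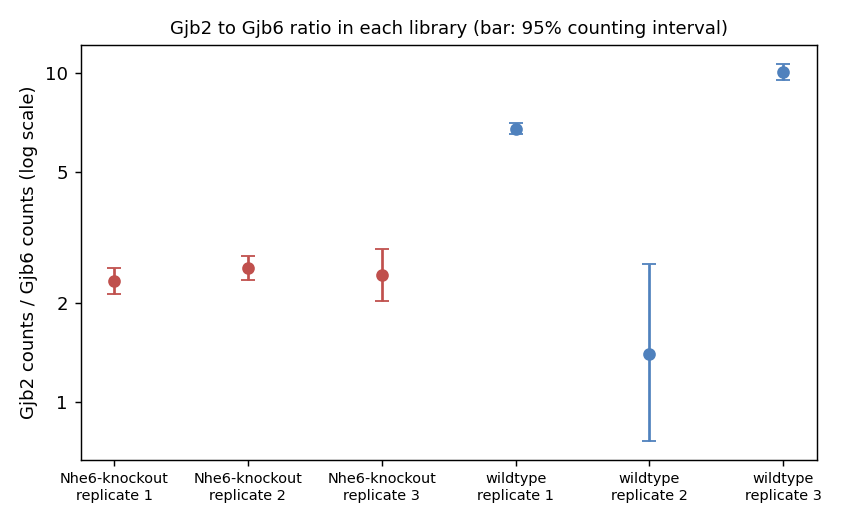
Ratio of *Gjb2* counts to *Gjb6* counts (vertical log axis) in each library, with 95% counting intervals. The 3 *Nhe6*-knockout libraries (red) lie between 2.33 and 2.56, and the wildtype libraries (blue) at 6.76, 1.40 and 10.1.

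Markers of other cochlear cell types moved with *Gjb2* and *Gjb6* in part. The summed normalized count of 8 epithelial and marginal cell genes was 218, 748 and 58.7 in the *Nhe6*-knockout libraries and 1170, 5.16 and 539 in the wildtype libraries, with the marginal cell gene *Kcne1* at 0 in all. Both *Gjb* genes and this sum were lowest in wildtype replicate 2 and highest in wildtype replicate 1. Between *Nhe6*-knockout replicates 1 and 2, in contrast, the epithelial sum differed (218 and 748) while *Gjb2* was similar (1756 and 1876). The sum of 10 macrophage genes was also lowest in wildtype replicate 2, at 99.0 against 1386 to 3503 in the other libraries. The sum of 5 fibrocyte and otic mesenchyme genes was 6483 there against 15414 to 35284 elsewhere. *Pou3f4* (122 normalized counts), *Tbx18* (4339) and *Car3* (367) were lowest there, and *Otos* was at 0. The fibrocyte gene *Coch* was instead highest there, at 1654 normalized counts against 115 to 695. The sum of 12 mural genes was highest in wildtype replicate 2, at 35300 against 16341 to 24458. It was carried by *Acta2* (16267 normalized counts), *Tagln* (5337) and *Cspg4* (4407), each highest there, as was *Cnn1* (33.0). *Pdgfrb* (7790), *Abcc9* (3.09), *Des* (4.13), *Rgs5* (29.9) and *Mcam* (36.1) were at their lowest there. The sort was made before these libraries, and the part of other cell types in the *Gjb2* and *Gjb6* values was not tested.

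*Gja1*, the gene of Cx43, the most widespread connexin, lies on chromosome 10 (56377330 to 56402513, plus strand). It had 19729, 18867 and 8481 normalized counts in the *Nhe6*-knockout libraries and 9134, 23725 and 5420 in the wildtype libraries. The highest value was that of wildtype replicate 2 and the lowest that of wildtype replicate 3, so the *Nhe6*-knockout values lay inside the wildtype range. The log2 fold change was 0.30 ± 0.59 SE (95% interval −1.13 to 1.73) with an edgeR adjusted p of 0.888. It was 1.10 ± 0.42 SE without wildtype replicate 2 (edgeR adjusted p = 0.230) and −0.074 without wildtype replicate 3, and the adjusted p ranged from 0.230 to 0.999 over 14 alternatives.

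*Gja4* and *Gja5* were weakly detected. *Gja4*, the endothelial Cx37 gene, had 14, 15 and 18 counts in the *Nhe6*-knockout libraries and 3, 41 and 3 in the wildtype libraries. The *Nhe6*-knockout values were nearly equal and lay between the wildtype extremes. Its log2 fold change was −0.078 ± 1.02 SE (95% interval −2.54 to 2.39, edgeR adjusted p = 0.982). Without wildtype replicate 2 it was 2.27 ± 0.52 SE (edgeR adjusted p = 0.0842, and from 0.0842 to 0.999 over 13 alternatives). With all 6 libraries, limma-voom gave 0.95 and a model with the replicate number as a block gave 0.88. The direction of the difference therefore depended on that library and on the model. *Gja5*, the arterial Cx40 gene, had 1 count in all, in *Nhe6*-knockout replicate 2, and was not tested. A count of 0 allows up to 3 counts in a library of this depth. Exons of *Gpr89* on the opposite strand overlap those of *Gja5*, and the strand setting of the counting was not given in the sources used here. The endothelial markers were mixed in these libraries. *Cldn5* and *Robo4* were at 0, and *Pecam1*, *Tie1*, *Erg* and *Vwf* did not pass the filter on low counts. Of those that passed, *Cdh5*, *Tek*, *Esam* and *Kdr* had their highest normalized counts in wildtype replicate 2, as *Gja4* did. *Emcn* and *Egfl7* were instead lowest there. The part of endothelial cells in the *Gja4* and *Gja5* values was not tested.

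*Gjc1*, the Cx45 gene of mural and other mesenchymal cells, was even across libraries. The *Nhe6*-knockout libraries held 541, 529 and 643 normalized counts and the wildtype libraries 431, 390 and 645. Wildtype replicate 3 was level with the highest *Nhe6*-knockout library and the other wildtype libraries were below all 3. The log2 fold change was 0.23 ± 0.23 SE (95% interval −0.32 to 0.78, edgeR adjusted p = 0.767), and the 14 alternatives gave 0.081 to 0.47.

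*Panx1*, the gene of the main ATP-releasing pannexin, had 91.3, 124 and 132 normalized counts in the *Nhe6*-knockout libraries and 64.5, 90.8 and 64.2 in the wildtype libraries. All 3 *Nhe6*-knockout libraries were above all 3 wildtype libraries, though *Nhe6*-knockout replicate 1 and wildtype replicate 2 were nearly equal. The log2 fold change was 0.66 ± 0.30 SE (95% interval −0.052 to 1.38, unadjusted p = 0.0640, edgeR adjusted p = 0.453). The genotypes failed to overlap in this direction for 10.3% of all genes tested. The cell cycle genes separated the genotypes too, with a summed normalized count of 6869 to 12855 in *Nhe6*-knockout and 1893 to 3028 in wildtype libraries, and the part of proliferation in the *Panx1* difference was not tested.

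Over the family, 6 of the 7 genes passed the filter on low counts. None was called by edgeR at an adjusted p of 0.05, where 0.0668% of all 13479 genes were, and none had an unadjusted p under 0.05, where 11.8% did. DESeq2 also called 0 of the 6, against 4.65% of all genes. Of the 6 genes, 1 did not overlap between genotypes (*Panx1*), against 19.9% of all genes. Without wildtype replicate 2, edgeR called 1 of the 6 (*Gjb2*, lower) against 2.88% of the 13728 genes tested (1.26% lower and 1.62% higher), and 5 of the 6 had an unadjusted p under 0.05 against 19.5%. The median log2 fold change of the 6 genes was 0.074, beside −0.016 over all genes, and without that library 0.46, beside 0.00033.

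**Figure D3:**
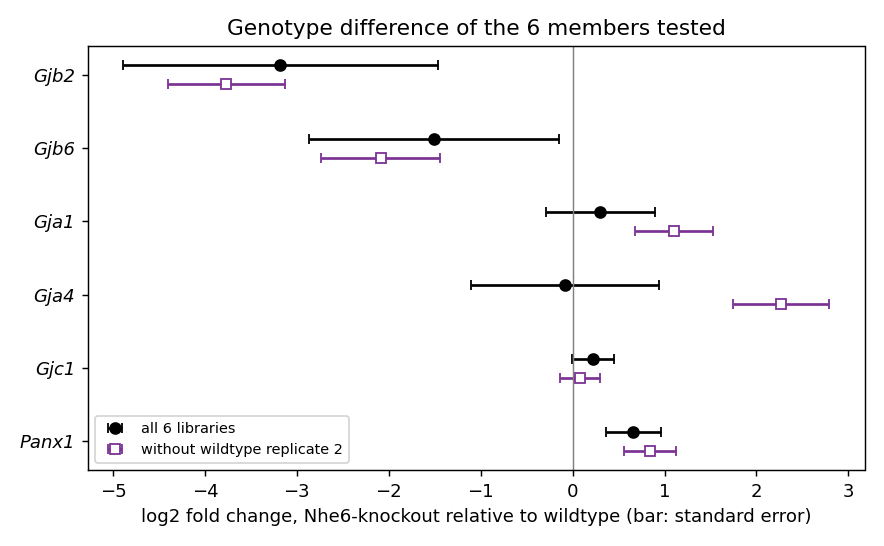
Log2 fold change of the 6 tested genes (*Nhe6*-knockout relative to wildtype, bars are standard errors) with all 6 libraries (filled circles) and without wildtype replicate 2 (open squares). *Gjb2* and *Gjb6* stay below 0 in both, and *Gja4* moves from −0.078 to 2.27.

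Scaled to exon length (normalized counts per kb), *Gja1* was the highest member in *Nhe6*-knockout cells, at 1530 ± 610 (SD, n = 3), followed by *Gjb2* at 558, *Gjb6* at 206, *Gjc1* at 114, *Panx1* at 19.2 and *Gja4* at 9.07. The ranges of *Gjb2* and *Gjb6*, and of *Gjb6* and *Gjc1*, overlapped there, and other neighbours in the order were separate. In wildtype cells *Gjb2* came first at 5050 ± 4595 per kb (SD, n = 3), then *Gja1* at 1244, *Gjb6* at 585, *Gjc1* at 97.7, *Panx1* at 12.1 and *Gja4* at 9.58. Of these neighbours, only *Gjc1* and *Panx1* had separate ranges, and *Gjb2* ranged from 12.0 to 9009 per kb.

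As shares of all connexin and pannexin counts of a library, *Gja1* made up 85.9%, 84.9% and 85.6% in the *Nhe6*-knockout libraries. Its share was 26.4%, 97.2% and 24.2% in the wildtype libraries, and the widest exact binomial interval of these 6 shares was 84.9% to 86.2%, in *Nhe6*-knockout replicate 3. *Gjb2* made up 7.64%, 8.44% and 4.0% against 62.7%, 0.118% and 65.9%. *Gja1* thus led in all *Nhe6*-knockout libraries and in wildtype replicate 2, and *Gjb2* led in wildtype replicates 1 and 3. The mean shares differed by 36.2 percentage points for *Gja1* and by −36.2 for *Gjb2* (two-sided exact permutation tests, p = 0.4 each). Both are shares of the same total, so these tests are not independent. With 1 library left out in turn the mean shares differed by 23.7 to 60.1 points for *Gja1* and by −57.6 to −24.7 for *Gjb2*. The larger size in each case was that without wildtype replicate 2. *Panx1* made up 0.397% to 1.34% in *Nhe6*-knockout and 0.187% to 0.372% in wildtype libraries (exact permutation test, p = 0.1, the smallest possible). Per kb its shares overlapped, at 0.487% in *Nhe6*-knockout replicate 1 and 0.600% in wildtype replicate 2 (exact permutation test, p = 0.2). *Gja1*, *Gjb2* and *Gjb6* together held 91.2% to 98.3% in every library.

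**Figure D4:**
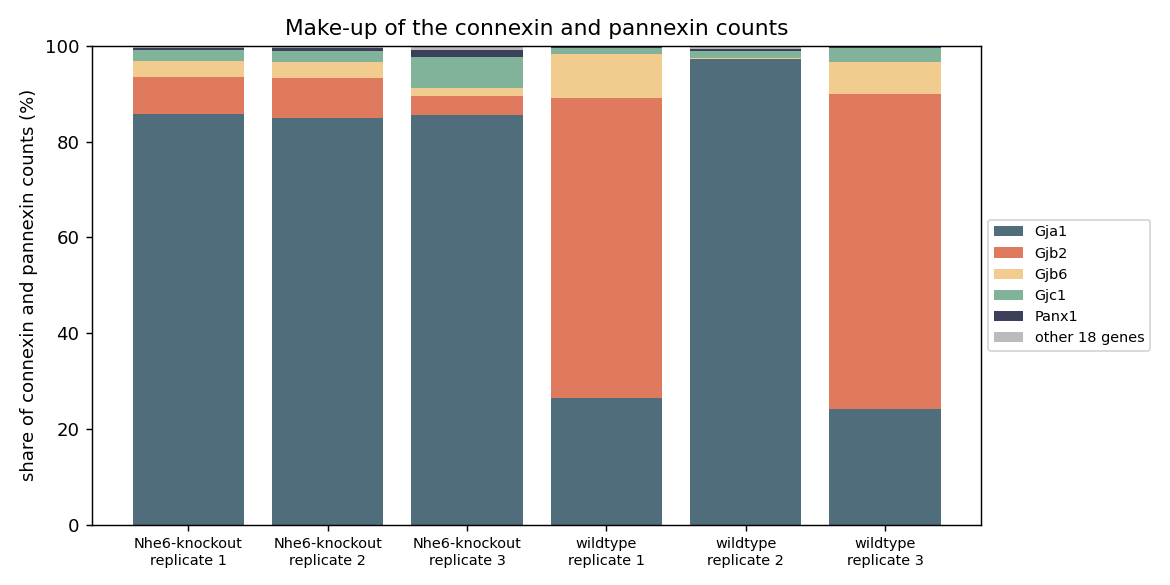
Share of each gene in the summed counts of 23 connexin and pannexin genes (vertical axis, percent) in each library. *Gja1* fills 84.9% to 85.9% of the 3 *Nhe6*-knockout bars and 97.2% of wildtype replicate 2, whereas *Gjb2* fills 62.7% and 65.9% of wildtype replicates 1 and 3.

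The other 16 connexins and pannexins were scarce. Only *Gja3* and *Gjb5* passed the filter, and *Gjb1*, *Gjd2*, *Gjd3* and *Gjd4* were among those listed at 0 in all libraries. *Gjb5*, a connexin of skin and other epithelia, had 32.9, 11.1 and 24.6 normalized counts in the *Nhe6*-knockout and 5.87, 8.25 and 4.28 in the wildtype libraries. The groups did not overlap, and the log2 fold change of 1.87 ± 0.56 SE had an edgeR adjusted p of 0.270. *Gja3*, which lies 40499 bp from *Gjb2*, had 14.9, 13.9 and 28.4 against 45.0, 8.25 and 19.3 normalized counts.

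Connexin partners (scaffold, junction and kinase genes whose proteins bind or modify connexins) were all measured, 15 of 15. edgeR called 0 of them (0.0668% of all genes), 3 had an unadjusted p under 0.05 (all lower, against 5.71% of all genes) and DESeq2 called 1 of the 15, against 4.65% of all genes. *Cav1*, the main caveolin, had 4387, 4299 and 4465 normalized counts in the *Nhe6*-knockout and 15281, 6817 and 22235 in the wildtype libraries, with no overlap. Its log2 fold change was −1.75 ± 0.41 SE, with an adjusted p of 0.162 in edgeR and 9.73e-04 in DESeq2, and up to 0.606 over 14 alternatives. *Mapk3*, a kinase that phosphorylates Cx43, was another of the 3, with a log2 fold change of −0.50 ± 0.16 SE (edgeR adjusted p = 0.294). *Tjp1*, whose ZO-1 protein binds Cx43 and sets the size of its plaques, had 6947, 6902 and 6307 against 8957, 4892 and 19668 normalized counts, so the genotypes overlapped (log2 fold change −0.73 ± 0.47 SE, edgeR adjusted p = 0.616). Without wildtype replicate 2, where edgeR called 2.88% of all genes, it called *Cav1* (lower, adjusted p = 0.0140) and *Cdh2* (higher, log2 fold change 1.45 ± 0.23 SE, adjusted p = 0.0368, and up to 0.970 over 14 alternatives). *Nedd4*, a ubiquitin ligase of Cx43, was even, with a log2 fold change of 0.0064 ± 0.26 SE.

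Genes of extracellular nucleotides, which receive or break down the ATP that such channels release, were tested for 18 of 24. edgeR called 0 (0.0668% of all genes) and 2 had an unadjusted p under 0.05 (both higher, against 6.14% of all genes). DESeq2 called 1 of the 18, against 4.65% of all genes. *Alpl*, a phosphatase that degrades extracellular nucleotides, had 108, 155 and 48.3 normalized counts in the *Nhe6*-knockout and 4.89, 7.22 and 21.4 in the wildtype libraries, without overlap. Its log2 fold change was 3.21 ± 0.72 SE, with an adjusted p of 0.152 in edgeR and 7.87e-04 in DESeq2, and up to 0.553 over 13 alternatives. *P2rx7*, the ATP-gated channel with which *Panx1* is often studied, had 99.8, 126 and 167 against 53.8, 75.3 and 82.3 normalized counts, also without overlap (log2 fold change 0.89 ± 0.32 SE, edgeR adjusted p = 0.352). *P2rx2*, the ATP-gated channel of cochlear epithelium, overlapped between genotypes, at 43.5, 240 and 22.7 against 345, 20.6 and 202.

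**Figure D5:**
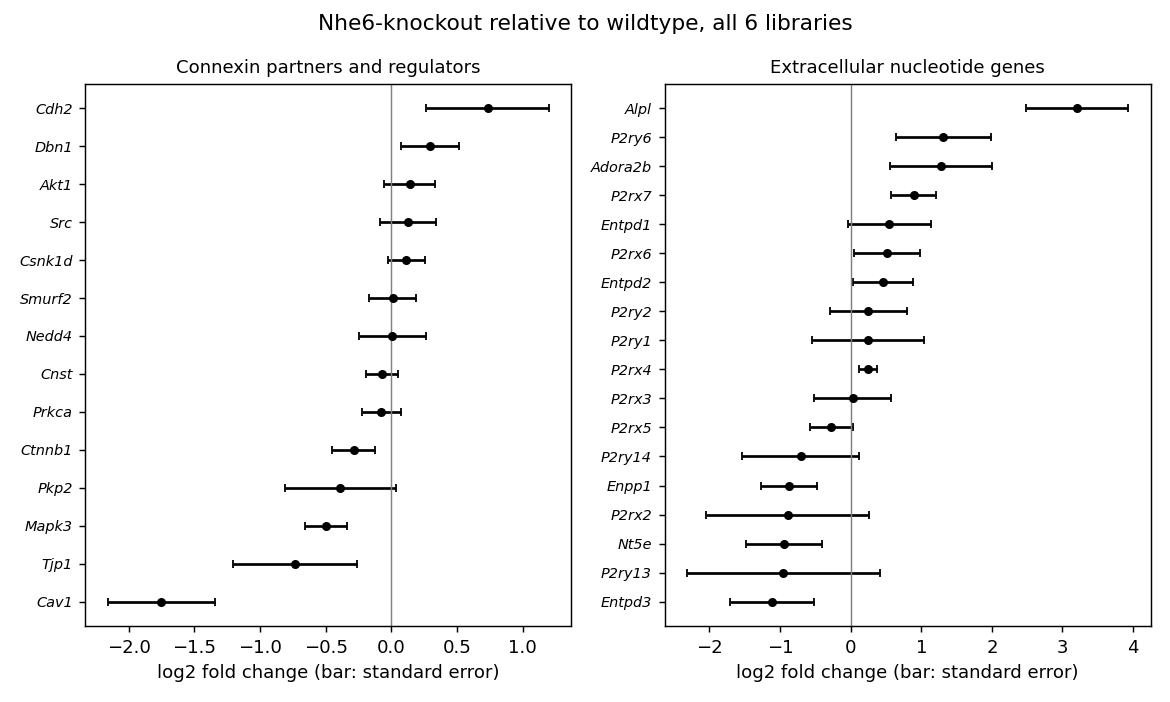
Log2 fold change (horizontal axis, *Nhe6*-knockout relative to wildtype, bars are standard errors) of 14 of the connexin partners and the 18 tested genes of extracellular nucleotides. *Cav1* is the lowest of the partners at −1.75 and *Alpl* the highest of the nucleotide genes at 3.21, and none passed edgeR's adjusted threshold.

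For each tested member, a gene with a closely correlated pattern of log2 CPM over the 6 libraries was listed as a description. The second in rank is given for *Gjb2* and the first for the others. These were *Mal2* for *Gjb2* (Pearson r = 0.996), *St3gal6* for *Gjb6* (0.999), *Elovl1* for *Gja1* (0.993), *Heatr6* for *Gja4* (0.996), *Fzd3* for *Gjc1* (0.997) and *Nek8* for *Panx1* (0.992). Over the 5 libraries without wildtype replicate 2, r was 0.991, 0.999, 0.992, 0.992, 0.996 and 0.997 in the same order. *St3gal6*, a sialyltransferase, had 176, 169 and 64.3 normalized counts in the *Nhe6*-knockout and 464, 18.6 and 294 in the wildtype libraries. These genes are the highest or second highest of 13479 on 6 points that share their libraries. Pearson r compares the pattern only, not the level or the size of the differences. *Heatr6*, for example, ranged from 761 to 952 normalized counts where *Gja4* ranged from 2.93 to 42.3.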

How the data were processed

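The authors deposited 1 table of raw counts per gene for 6 poly(A)-enriched stranded libraries, aligned to mm10, and the submitters' processing notes list bcl2fastq 2.20.0.422, STAR 2.7.7a, HTSeq 0.13.5 and DESeq2 1.26.0. The annotation and the strand setting were not given in the sources used here. The 5 summary lines, 21.5% to 23.6% of each column, were left out.

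Genes were filtered with filterByExpr (minimum count 10), normalized with TMM (factors 0.976 to 1.03) and tested in edgeR 4.0.16 (R 4.3.3) by quasi-likelihood, with a model of genotype alone and Benjamini-Hochberg adjustment over 13479 genes at 0.05. Shares and ratios were compared with two-sided exact permutation tests (scipy 1.17.1). Lengths and positions came from GENCODE on GRCm38, and promoters from RefSeq for 6 of the 7 members (not *Gjc1*). The tests were tried on simulated counts without an outlying library, which does not show how they perform with a library like wildtype replicate 2. DESeq2 1.42.0 and limma-voom (limma 3.58.1) were alternatives, with the others named below. The 7 genes and all lists were chosen with earlier results of these data known. All members, measured genes of the channel, partner, nucleotide and marker lists, and the 3 genes most correlated with each member could be named. *Gpr89* was named after its overlap was seen.

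By genotype, the sum of the mural genes was 22151 to 24458 (*Nhe6*-knockout) and 16341 to 35300 (wildtype). The marker lists not described above gave summed normalized counts, in the same order, of 217003 to 250555 and 174823 to 286592 for fibroblast genes. The highest fibroblast sum was that of wildtype replicate 2. *Col1a1* (27174 normalized counts), *Col1a2* and *Thy1* were highest there, whereas *Col3a1*, *Pdgfra*, *Dcn*, *Lum* and *Fbln1* were lowest there. The lists gave, again in that order, 397 to 675 and 286 to 1123 for melanocyte, and 410 to 812 and 533 to 802 for glial genes. *Dct*, *Tyr*, *Tyrp1* and *Mlana* were found almost only in wildtype replicate 3, at 178, 24.6, 290 and 33.2 normalized counts. *Mitf* was highest in wildtype replicate 1, at 727. Values of the targeted gene and of some listed genes are not reported here.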

Additional observations from a re-analysis of the deposited data

How the results depend on the processing

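Calls over all genes numbered 9 with all libraries, 21 with no filter beyond 1 count, 21 with at least 10 counts in every library, 627 with DESeq2, 2 with a replicate block, 1 with *Nhe6*-knockout replicates 1 and 2 summed, and 0 to 395 with 1 library left out in turn (395 without wildtype replicate 2, 0 to 4 without any other). The cause was not tested. Members called were 0 in 13 of 14 alternatives, and 0 to 1 with 1 library left out (*Gjb2*, without wildtype replicate 2). Partners called were 1 with DESeq2 and 0 to 2 with 1 library left out, and nucleotide genes called were 1 with DESeq2.

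With 1 library left out, the log2 fold change of *Gja1* ranged from −0.074 (without wildtype replicate 3) to 1.10 (without wildtype replicate 2), of *Gjb2* from −3.77 to −2.47 and of *Gja4* from −0.58 to 2.27. *Gja4* was 0.95 in limma-voom and 0.88 with the replicate block, and could not be tested with at least 10 counts in every library. *Gjb6* ranged from −2.09 to −0.44 with 1 library left out. *Gjb2*, *Gjb6*, *Gjc1* and *Panx1* kept their direction in all 14 alternatives, but limma-voom gave only −0.96 for *Gjb2* and −0.074 for *Gjb6*. The *Gja4* share differed by −0.00164 to 0.0883 percentage points with 1 library left out, and the *Gjb6* share by 1.51 points per kb, where the share of counts gave −2.55.

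Same-numbered cultures deviated together with r of 0.198, −0.204 and 0.0937, so the replicate numbers were not taken as pairs, and not every culture correlated best with its own number. Under the block no member was called. At 3 to 41 counts, *Gja4* was limited by depth, and *Gja5* at 1 count was not comparable.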
